A study of Mus musculus with 6 samples.

Results

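The amino acid response and tRNA synthetase genes followed here are 36 mouse genes that make or carry amino acids, load them onto tRNA, or control the stress response run by the transcription factor ATF4. They were picked by gene name from what is known of ATF4 and its targets, with earlier results of these data known. They are 36 of the 21686 genes in the deposited gene table. Grouped by role, there were 5 sensors and transcription factors, 6 feedback and stress effectors, 5 serine and one-carbon enzymes, 5 other amino acid enzymes, 5 amino acid transporters, and 10 genes of tRNA charging and tRNA export.

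The cells were MC3T3-E1 Subclone 14, a single clone of a mouse osteoblast precursor line, and the study asked what dexamethasone, a synthetic glucocorticoid, does to them and what changes when extracellular vesicles are added. Each of the 3 groups had 2 libraries taken at 72 hours. Control cells received 100 µL of PBS, the dexamethasone group received 10 µM of dexamethasone, and the dexamethasone + EPC-EVs group received 10 µM of dexamethasone with 100 µg of EPCs-exo, vesicles from endothelial progenitor cells (EPCs) of Kunming mouse bone marrow. The summary of the series speaks of fibroblasts and 48 hours, and the sample labels, which give osteoblasts and 72 hours, were followed. There was no group with vesicles and without dexamethasone. The replicates are called biological, but nothing states that they came from separate cultures, so the p-values measure the spread between these samples and no more.

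Cells that run short of amino acids, or whose endoplasmic reticulum is stressed, switch on kinases that phosphorylate the translation factor eIF2. Translation then slows for most mRNAs while that of ATF4 rises, and ATF4 activates genes for amino acid synthesis, amino acid uptake and tRNA charging, together with genes that end the response or, through CHOP (the product of Ddit3), favour cell death. Osteoblasts depend on ATF4 for the amino acid supply behind collagen synthesis.

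The libraries held 6126888 and 5146760 counts in control, 6583735 and 6575094 in dexamethasone, and 12864009 and 13182014 in dexamethasone + EPC-EVs. A count of 0 allows up to 3 counts, which is between 0.228 and 0.583 CPM over the 6 libraries, and covers counting error alone. CPM means counts scaled to library size, here with the TMM factors of edgeR over the 6 libraries. Between replicates the counts varied beyond sampling noise: the chi-square divided by its degrees of freedom was 16.6 for control, 7.17 for dexamethasone and 20.1 for dexamethasone + EPC-EVs. Mitochondrially encoded genes took 7.46% and 8.62% of the counts in control, 5.55% and 5.78% in dexamethasone, and 0.465% and 0.727% in dexamethasone + EPC-EVs. The dexamethasone + EPC-EVs libraries thus stood apart in depth and composition, and a library batch and the treatment cannot be told apart.

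Taken as a sum, the 36 genes had 2947 and 2658 CPM in control, 2632 and 2406 CPM in dexamethasone, and 3831 and 4307 CPM in dexamethasone + EPC-EVs. Both dexamethasone + EPC-EVs libraries lay above the other 4, and both dexamethasone libraries lay below both control libraries. By FPKM, which divides by gene length and so lets genes be compared, the highest group mean in control was that of Nars, the asparaginyl-tRNA synthetase, at 95.4. In dexamethasone + EPC-EVs the highest was Atf4 at 127 FPKM, against 31.6 FPKM in dexamethasone. The lowest in dexamethasone + EPC-EVs was Cth, the cystathionine gamma-lyase that makes cysteine, with a mean of 0.0554 FPKM. Cth had 18 and 1 counts in control, 1 and 6 in dexamethasone and 3 and 1 in dexamethasone + EPC-EVs, too few to pass the filter on low counts, and the other 35 genes passed it in all 3 comparisons. In RNA from whole cultures, fewer cells of a kind and less RNA per cell cannot be told apart.

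The effect of dexamethasone alone was read from dexamethasone against control. Each comparison was fitted over the whole table on the 4 libraries of its groups with edgeR's quasi-likelihood test, the Benjamini-Hochberg adjustment took in every gene tested, and called means an adjusted p under 0.05. Each log2 fold change is given with its standard error (SE). Of the 35 genes tested, 0 were called higher and 0 lower by edgeR, where 0.0155% of all 12879 genes tested were called higher and 0.0388% lower. At an unadjusted p under 0.05 there were 2 higher and 2 lower, which is 11.4% of the 35 against 10.9% of all genes tested. DESeq2 called 0 higher and 1 lower, against 0.223% and 0.441% of all genes, and limma on log2(FPKM + 1) called 0 higher and 0 lower, and 0 of all genes either way. The median log2 fold change of the 35 was -0.17, against 0.0071 over all genes tested. It moved to -0.038 without control replicate 1, -0.027 without dexamethasone replicate 2, -0.090 with library totals only, -0.048 under limma and -0.056 with counts thinned to equal depth. The counts called depended on the control libraries: without control replicate 1, 4 members were called higher and 2 lower, where 9.25% and 6.80% of all genes were called in the same fit. Without control replicate 2 there were 0 and 1, where 0.358% and 0.468% of all genes were called.

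Slc1a5, Ddit4, Iars and Nars were the genes with an unadjusted p under 0.05 in that comparison, a share close to that of all genes, so their values are described and no effect of dexamethasone on them is called. Slc1a5, the glutamine transporter ASCT2, had 9.20 and 5.41 CPM in control and 25.3 and 25.3 CPM in dexamethasone. Both dexamethasone libraries lay above both control libraries, with a log2 fold change of 1.78 (SE 0.40, adjusted p = 0.256) from edgeR. Iars, the cytosolic isoleucyl-tRNA synthetase, had 144 and 130.1 CPM in control and 78.8 and 91.0 CPM in dexamethasone, a log2 fold change of -0.69 (SE 0.18, adjusted p = 0.279). Both of its dexamethasone libraries lay below both control libraries, and DESeq2 called it with a log2 fold change of -0.70. Ddit4, an inhibitor of the growth kinase mTORC1, had a log2 fold change of 0.68 (SE 0.30, adjusted p = 0.442), and Nars one of -0.39 (SE 0.16, adjusted p = 0.421), in each case with libraries that did not overlap between the groups. Without control replicate 1 all 4 of these genes were called, with log2 fold changes of 2.23 for Slc1a5, 1.01 for Ddit4, -0.61 for Iars and -0.44 for Nars, and without control replicate 2 Iars was called at -0.75 while Ddit4 moved to 0.44, not called. With no filter Slc1a5 and Iars were called, at 1.78 and -0.69, as was Iars with the trend on GC content and transcript length removed from each library and the replicate number added to the fit (the replicate block), at -0.68, where Ddit4 dropped to 0.32 and Aars was called lower at -0.51. Eif4ebp1 and Sesn2 were called higher only when control replicate 1 was left out, at 2.04 and 0.69.

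What the vesicles added to dexamethasone was read from dexamethasone + EPC-EVs against dexamethasone, which shares the dexamethasone libraries with the comparison above. Most called members lay higher with the vesicles, among them Atf4, its relative Atf5 and all 5 serine and one-carbon enzymes, while Ddit3 lay lower. Of the 35 genes tested, edgeR called 22 higher and 1 lower, where 20.9% of all 13556 genes tested were called higher and 18.9% lower. The median log2 fold change of the 35 was 0.70, against 0.012 over all genes tested, and it dropped to 0.47 with the GC and length trend removed. In that fit 18 members were called higher and 4 lower, against 16.1% and 15.6% of all genes, with Sesn2, Sars and Slc1a4 the members added to those called lower and Tars the 1 added to those called higher. Without dexamethasone replicate 2 the count called higher went to 14, where 12.1% of all genes were called higher. The share of mitochondrially encoded genes moved with this comparison. With those genes left out edgeR called 22 members higher and 1 lower, where 20.9% and 19.0% of all genes were called. Setting aside the study's own threshold, which asks for a log2 fold change beyond 1.5, the calls of 13 members held under every alternative tried, and these were Atf4, Atf5, Ddit3, Trib3, Chac1, Phgdh, Psat1, Psph, Shmt2, Mthfd2, Slc38a2, Slc1a5 and Xpot.

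The combined treatment was read from dexamethasone + EPC-EVs against control, which shares libraries with both other comparisons. Here edgeR called 11 of the 35 higher and 2 lower, where 19.1% of all 13511 genes tested were called higher and 17.2% lower. The median log2 fold change of the 35 was 0.54, against 0.021 over all genes tested. With the GC and length trend removed the median of the 35 dropped to 0.23, and to 0.30 with the replicate block added. With the trend removed 8 members were called higher and 4 lower, against 12.8% and 13.6% of all genes, and Sesn2 and Aars were the members added to those called lower. The 11 called higher were Atf4, Atf5, Ddit4, Phgdh, Psat1, Shmt2, Mthfd2, Slc38a2, Slc1a5, Gars and Xpot, and the 2 called lower were Ddit3 and Sars. Without control replicate 1, 17 were called higher, where 24.6% of all genes were. The 6 that this added were Sesn2, Chac1, Trib3, Eif4ebp1, Aldh18a1 and Slc7a5, while Eprs was added to those called lower. Without control replicate 2, Psph and Gpt2 were added to those called higher. The count called lower was 1 without control replicate 2, 1 without dexamethasone + EPC-EVs replicate 1 and 1 without dexamethasone + EPC-EVs replicate 2, where 14.1%, 11.6% and 11.3% of all genes were called lower.

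**Figure D1:**
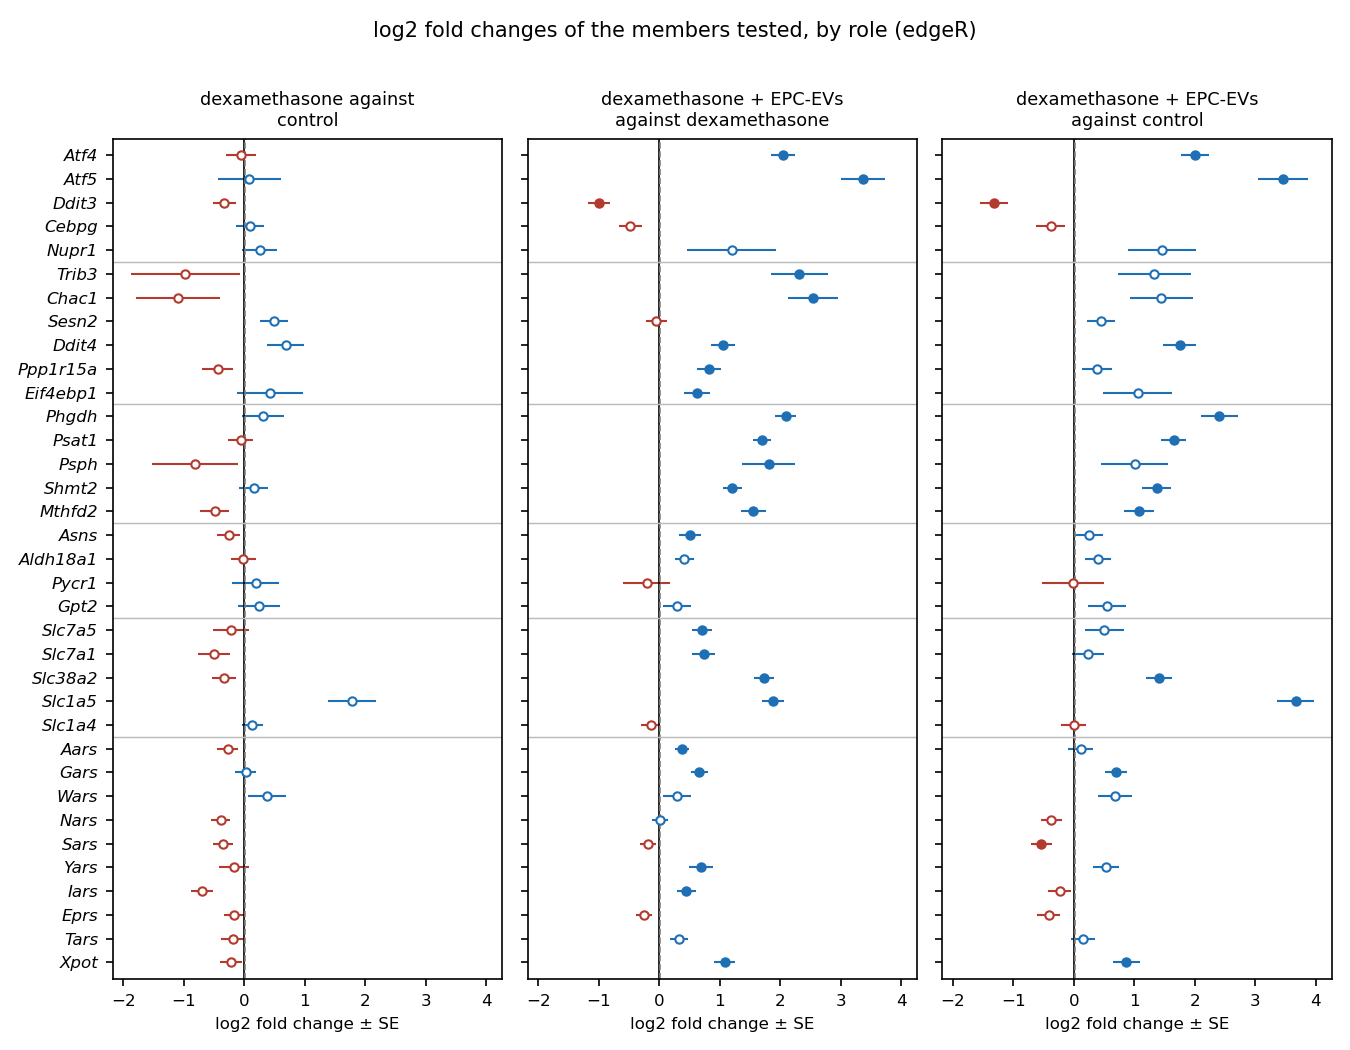
Log2 fold change with its SE (horizontal axis) of the 35 members tested (vertical axis, by role) in the 3 comparisons, with filled points for called genes and a dashed line at the median of all genes tested. Filled points number 0 in dexamethasone against control, 23 in dexamethasone + EPC-EVs against dexamethasone, of which 22 lie to the right of 0, and 13 in dexamethasone + EPC-EVs against control.

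Among the sensors and transcription factors, Atf4 and Atf5 rose and Ddit3 fell against both other groups. Atf4 (ENSMUSG00000042406.7, chr15:80255184-80257541 on GRCm38) had 60.1 and 49.3 CPM in control, 62.7 and 43.0 CPM in dexamethasone, and 189.9 and 254 CPM in dexamethasone + EPC-EVs. This was a log2 fold change of 2.05 (SE 0.20, adjusted p = 1.89e-05) against dexamethasone and of 2.00 (SE 0.23, adjusted p = 0.000617) against control. Both dexamethasone + EPC-EVs libraries lay far above the other 4, while the control and dexamethasone libraries overlapped. Atf5 (ENSMUSG00000038539.15, chr7:44812256-44816658), a close relative of Atf4 that the same translational switch controls, had 17.2 and 7.41 CPM in control, 17.8 and 8.54 CPM in dexamethasone, and 103 and 173 CPM in dexamethasone + EPC-EVs. In edgeR Atf5 had a log2 fold change of 3.37 (SE 0.36, adjusted p = 0.000133) against dexamethasone and of 3.45 (SE 0.41, adjusted p = 0.000754) against control. It too was high in both dexamethasone + EPC-EVs libraries alone. With the GC and length trend removed, the log2 fold changes against control dropped to 1.13 for Atf4 and 1.95 for Atf5, and both remained called.

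Ddit3 (ENSMUSG00000025408.15, chr10:127290774-127296288), which encodes CHOP, had 90.7 and 107 CPM in control, 75.5 and 82.1 CPM in dexamethasone, and 44.1 and 36.1 CPM in dexamethasone + EPC-EVs. From the edgeR fits came a log2 fold change of -0.99 (SE 0.18, adjusted p = 0.00125) against dexamethasone and of -1.32 (SE 0.23, adjusted p = 0.00287) against control. Its libraries did not overlap between any of the 3 groups, with control highest and dexamethasone + EPC-EVs lowest. Its log2 fold changes moved to -0.65 and -0.87 with the GC and length trend removed, both still called. The remaining genes of this role were called in no comparison. Cebpg, a dimer partner of ATF4, had 42.2 and 51.3 CPM in control, 51.1 and 48.6 CPM in dexamethasone, and 35.3 and 37.2 CPM in dexamethasone + EPC-EVs, and a log2 fold change of -0.48 (SE 0.19, adjusted p = 0.0661) against dexamethasone. Both dexamethasone + EPC-EVs libraries were below the other 4, and with library totals only or upper quartile scaling Cebpg was called lower, while removing the GC and length trend took it to -0.069. Nupr1, a small chromatin-associated stress protein, had 32.4 and 22.0 CPM in control, 32.5 and 32.6 CPM in dexamethasone, and 30.1 and 121 CPM in dexamethasone + EPC-EVs. The dexamethasone + EPC-EVs replicates stood apart, with replicate 2 above and replicate 1 within the range of the other libraries, and the log2 fold change of 1.46 (SE 0.56, adjusted p = 0.0717) against control was called without dexamethasone + EPC-EVs replicate 1, at 2.15 (and at 1.90 against dexamethasone), and was 0.14 without dexamethasone + EPC-EVs replicate 2. Nupr1 was also called with no filter and in the fit of all 6 libraries, at 1.50 and 1.47, and not with the GC and length trend removed and the replicate block added, at 0.94.

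**Figure D2:**
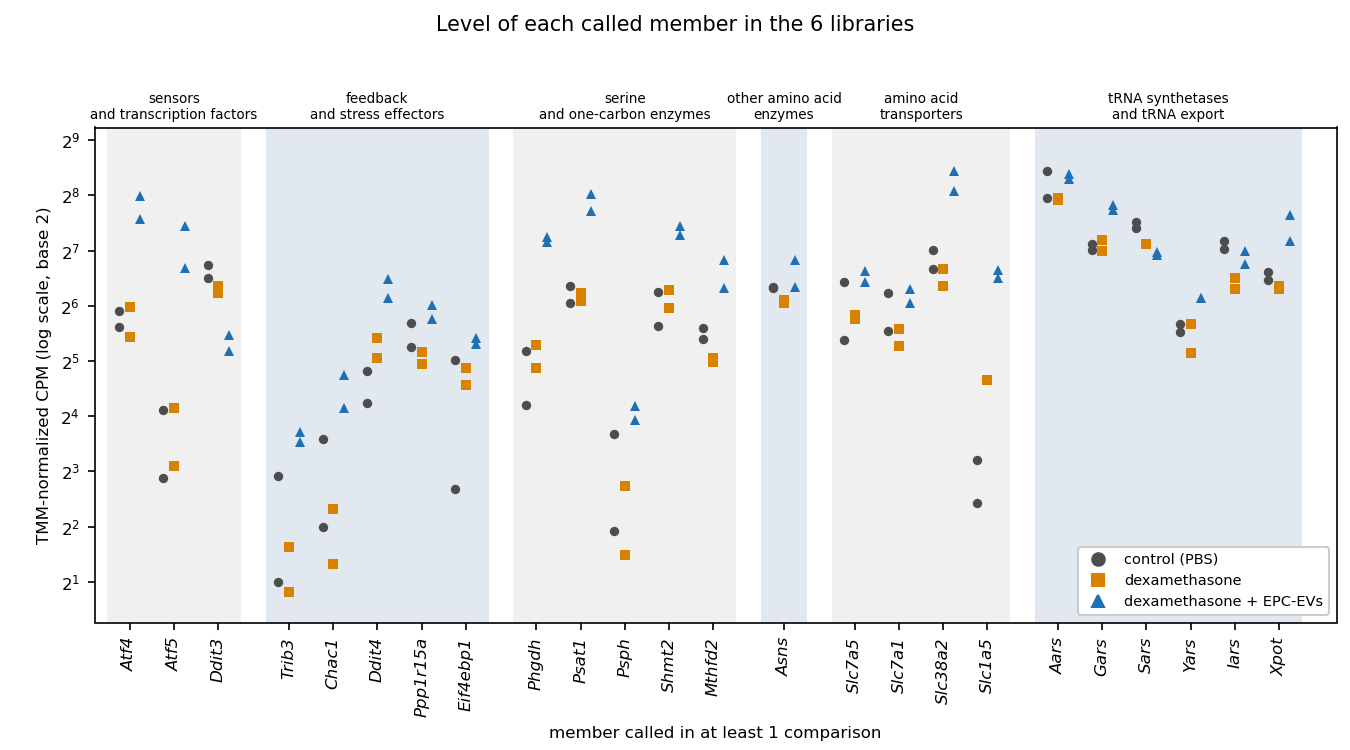
CPM on a log axis of the 24 members called in at least 1 comparison, with 1 point for each of the 6 libraries. Both dexamethasone + EPC-EVs libraries of Atf4 sit at 189.9 and 254 CPM, above the other 4 libraries, and those of Ddit3 sit at 44.1 and 36.1 CPM, below the other 4.

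Of the 6 feedback and stress effectors, 5 were called higher against dexamethasone (83.3%, against 20.9% of all genes tested). Trib3 (ENSMUSG00000032715.9, chr2:152337422-152344032), a pseudokinase that ATF4 and CHOP induce and that holds ATF4 back, had 7.56 and 2.00 CPM in control, 1.77 and 3.09 CPM in dexamethasone, and 13.1 and 11.6 CPM in dexamethasone + EPC-EVs. Against dexamethasone Trib3 differed by a log2 fold change of 2.32 (SE 0.47, adjusted p = 0.00223), and against control by 1.33 (SE 0.61, adjusted p = 0.120). Chac1 (ENSMUSG00000027313.3, chr2:119351229-119354381), which breaks down glutathione and is another target of ATF4 and CHOP, had 12.0 and 4.0 CPM in control, 5.01 and 2.50 CPM in dexamethasone, and 17.7 and 26.8 CPM in dexamethasone + EPC-EVs. This was a log2 fold change of 2.55 (SE 0.42, adjusted p = 0.000575) against dexamethasone and of 1.44 (SE 0.52, adjusted p = 0.0583) against control. In both genes the dexamethasone + EPC-EVs libraries lay above the other 4, yet the spread between the control replicates was wide and the difference from control was not called. Without control replicate 1 or without dexamethasone + EPC-EVs replicate 1, Chac1 was called against control at 2.49 and 1.73, and it was called with no filter, in the fit of all 6 libraries and by DESeq2, at 1.49, 1.46 and 1.46. Without control replicate 2 it was 0.89, and with the GC and length trend removed 0.43, neither of them called. Trib3 dropped to 1.54 against dexamethasone with that trend removed and remained called, and against control it was called without control replicate 1, at 2.63, and with no filter, at 1.38. Trib3 and Chac1 thus lay higher in the libraries in which Ddit3 lay lowest.

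Ddit4 (ENSMUSG00000020108.4, chr10:59949669-59951834), which is also a known glucocorticoid target, had 28.3 and 18.8 CPM in control, 42.9 and 33.1 CPM in dexamethasone, and 89.9 and 70.9 CPM in dexamethasone + EPC-EVs. In edgeR Ddit4 had a log2 fold change of 1.06 (SE 0.20, adjusted p = 0.00148) against dexamethasone and of 1.75 (SE 0.28, adjusted p = 0.00215) against control. Its 3 groups did not overlap and ran upward from control through dexamethasone to dexamethasone + EPC-EVs, and both calls were lost with the GC and length trend removed, at 0.31 and 0.61. Ppp1r15a, the subunit that directs a phosphatase to eIF2, had 51.6 and 38.0 CPM in control, 30.6 and 35.6 CPM in dexamethasone, and 54.3 and 64.5 CPM in dexamethasone + EPC-EVs. Against dexamethasone its log2 fold change was 0.82 (SE 0.20, adjusted p = 0.00697), with both dexamethasone + EPC-EVs libraries above the other 4, and the call was lost without dexamethasone replicate 1, at 0.73, and with the GC and length trend removed, at 0.28. Eif4ebp1, which holds back cap-dependent translation, had 32.5 and 6.41 CPM in control, 29.2 and 23.7 CPM in dexamethasone, and 39.6 and 43.0 CPM in dexamethasone + EPC-EVs, and a log2 fold change of 0.62 (SE 0.22, adjusted p = 0.0390) against dexamethasone. Control replicate 2 was far below the other libraries. Leaving out any 1 of the 4 libraries lost the call of Eif4ebp1, at 0.79 without dexamethasone replicate 1, 0.49 without dexamethasone replicate 2, 0.70 without dexamethasone + EPC-EVs replicate 1 and 0.58 without dexamethasone + EPC-EVs replicate 2. It was also lost under DESeq2 (0.62), the fit of all 6 libraries (0.64), library totals (0.58) and upper quartile scaling (0.58). Sesn2, a leucine sensor upstream of mTORC1, was called in no comparison and had 55.7 and 43.2 CPM in control, 76.3 and 63.3 CPM in dexamethasone, and 74.8 and 62.2 CPM in dexamethasone + EPC-EVs. With the GC and length trend removed it was called lower, at -0.81 against dexamethasone and -0.72 against control, and without control replicate 1 it was called higher, at 0.68 against control and 0.69 for dexamethasone against control. Against control Eif4ebp1 was called without control replicate 1, at 2.70, and with no filter, at 1.10.

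All 5 serine and one-carbon enzymes were called higher against dexamethasone (100%, against 20.9% of all genes tested). Against control 4 of them, Psph being the exception, were also called higher (80.0%, against 19.1% of all genes tested). Phgdh (ENSMUSG00000053398.11, chr3:98313170-98339990), which starts serine synthesis from a glycolytic intermediate, had 36.3 and 18.4 CPM in control, 39.0 and 29.3 CPM in dexamethasone, and 142 and 152 CPM in dexamethasone + EPC-EVs. From the edgeR fits came a log2 fold change of 2.09 (SE 0.18, adjusted p = 7.21e-06) against dexamethasone and of 2.40 (SE 0.31, adjusted p = 0.000952) against control. Psat1 (ENSMUSG00000024640.9, chr19:15904678-15947337), the aminotransferase of the next step, had 82.1 and 66.5 CPM in control, 75.5 and 67.8 CPM in dexamethasone, and 211 and 261 CPM in dexamethasone + EPC-EVs. Against dexamethasone Psat1 differed by a log2 fold change of 1.70 (SE 0.15, adjusted p = 1.13e-05), and against control by 1.65 (SE 0.21, adjusted p = 0.000925). For both enzymes the dexamethasone + EPC-EVs libraries lay above all others and the control and dexamethasone libraries overlapped. Against control Phgdh dropped to 1.36 with the GC and length trend removed, still called. Psph (ENSMUSG00000029446.14, chr5:129765558-129787449), the phosphatase of the last step, was the least abundant of the 3 at 3.82 FPKM in dexamethasone + EPC-EVs, where Phgdh had 58.5 and Psat1 54.7 FPKM. Psph had 3.78 and 12.8 CPM in control, 6.63 and 2.80 CPM in dexamethasone, and 15.3 and 18.2 CPM in dexamethasone + EPC-EVs, with a log2 fold change of 1.81 (SE 0.43, adjusted p = 0.00616) against dexamethasone and 1.01 (SE 0.55, adjusted p = 0.189) against control. Its control replicates differed widely, and its dexamethasone + EPC-EVs libraries were the highest of the 6. Without control replicate 2 Psph was called against control, at 2.15.

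Shmt2 (ENSMUSG00000025403.5, chr10:127517123-127522444), which turns serine into glycine inside mitochondria and passes on a one-carbon unit, had 76.2 and 49.5 CPM in control, 78.0 and 62.3 CPM in dexamethasone, and 155 and 174 CPM in dexamethasone + EPC-EVs. This was a log2 fold change of 1.21 (SE 0.16, adjusted p = 0.000143) against dexamethasone and of 1.37 (SE 0.24, adjusted p = 0.00347) against control. Mthfd2 (ENSMUSG00000005667.8, chr6:83305691-83325908), which oxidizes that one-carbon unit in mitochondria, had 48.5 and 42.2 CPM in control, 33.3 and 31.7 CPM in dexamethasone, and 79.8 and 114 CPM in dexamethasone + EPC-EVs. In edgeR Mthfd2 had a log2 fold change of 1.56 (SE 0.21, adjusted p = 0.000147) against dexamethasone and of 1.08 (SE 0.25, adjusted p = 0.0105) against control. Both were high in the dexamethasone + EPC-EVs libraries, and the dexamethasone libraries of Mthfd2 lay below those of control. Removing the GC and length trend took Shmt2 to 0.52 against dexamethasone, still called, and to 0.31 against control, where the call was lost. Without dexamethasone + EPC-EVs replicate 2 the call of Mthfd2 against control was lost, at 0.80.

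Of the 4 other amino acid enzymes tested, 1 was called higher against dexamethasone (25.0%, against 20.9% of all genes tested) and 0 against control. Asns, the asparagine synthetase that is a standard readout of the amino acid response, had 80.2 and 81.3 CPM in control, 66.4 and 68.8 CPM in dexamethasone, and 81.5 and 113 CPM in dexamethasone + EPC-EVs. Its log2 fold change of 0.51 (SE 0.18, adjusted p = 0.0463) against dexamethasone was just past the threshold, and dexamethasone + EPC-EVs replicate 1 was level with the control libraries. The call of Asns was lost without dexamethasone replicate 1 at 0.49, without dexamethasone replicate 2 at 0.54 and without dexamethasone + EPC-EVs replicate 2 at 0.27, and under DESeq2, limma, the all-library fit, thinned counts and 3 other scalings, all between 0.43 and 0.52. Aldh18a1, at the head of proline synthesis, had 150.3 and 108 CPM in control, 144 and 112 CPM in dexamethasone, and 187 and 158 CPM in dexamethasone + EPC-EVs. Its log2 fold change against dexamethasone was 0.41 (SE 0.16, adjusted p = 0.0561), with libraries that did not overlap, and it was called without dexamethasone + EPC-EVs replicate 2, at 0.55, with no filter, at 0.45, and with the replicate block, at 0.42. It was 0.25 without dexamethasone replicate 2 and 0.028 with the GC and length trend removed, in neither case called. Pycr1, which finishes proline synthesis, and Gpt2, the mitochondrial alanine transaminase, had log2 fold changes of -0.21 and 0.30 against dexamethasone and were called in no comparison. The dexamethasone + EPC-EVs replicates of Pycr1 were the highest and the lowest of its 6 libraries, at 25.0 and 9.41 CPM. Against control Gpt2 was called without control replicate 2, at 0.98, and Aldh18a1 without control replicate 1, at 0.70.

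Of the 5 amino acid transporters, 4 were called higher against dexamethasone, where 20.9% of all genes tested were called higher. Of these, 2 were also called higher against control, where 19.1% of all genes tested were. Slc1a5 (ENSMUSG00000001918.17, chr7:16781340-16798274) reached 90.4 and 99.6 CPM in dexamethasone + EPC-EVs, above the dexamethasone and control values given earlier. From the edgeR fits came a log2 fold change of 1.89 (SE 0.18, adjusted p = 1.55e-05) against dexamethasone and of 3.67 (SE 0.31, adjusted p = 0.000249) against control, and its 3 groups did not overlap. Slc38a2 (ENSMUSG00000022462.6, chr15:96687392-96699730), the sodium-coupled carrier SNAT2 for small neutral amino acids, had 129 and 102 CPM in control, 81.7 and 101 CPM in dexamethasone, and 269.9 and 348 CPM in dexamethasone + EPC-EVs. Against dexamethasone Slc38a2 differed by a log2 fold change of 1.74 (SE 0.17, adjusted p = 1.70e-05), and against control by 1.40 (SE 0.21, adjusted p = 0.00186). Its dexamethasone + EPC-EVs libraries were the highest of the 6, and its dexamethasone libraries lay at or below those of control. Slc7a5, the leucine exchanger LAT1, had 86.6 and 41.8 CPM in control, 56.7 and 54.4 CPM in dexamethasone, and 86.1 and 98.4 CPM in dexamethasone + EPC-EVs, and a log2 fold change of 0.71 (SE 0.16, adjusted p = 0.00486) against dexamethasone. Slc7a1, the arginine and lysine carrier CAT1, had 75.2 and 46.9 CPM in control, 48.0 and 38.4 CPM in dexamethasone, and 66.3 and 79.4 CPM in dexamethasone + EPC-EVs, and a log2 fold change of 0.74 (SE 0.19, adjusted p = 0.0101) against dexamethasone. For both, the dexamethasone + EPC-EVs libraries lay above both dexamethasone libraries but overlapped with control. Without dexamethasone replicate 2 both calls were lost, at 0.69 for Slc7a5 and 0.59 for Slc7a1, and with the GC and length trend removed Slc7a5 dropped to 0.13. The call of Slc7a5 was also lost in the fit of all 6 libraries, at 0.73, and that of Slc7a1 under limma, at 0.57. Slc1a4, the related carrier ASCT1, was called in no comparison, with a log2 fold change of -0.14 against dexamethasone and overlapping libraries, and was called lower with the GC and length trend removed, at -0.47. Against control Slc7a5 was called without control replicate 1, at 1.16.

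In the last role, Xpot and 4 of the 9 tRNA synthetases were called higher against dexamethasone, where 20.9% of all genes tested were. Against control 2 of the 10 genes were called higher and 1 lower, where 19.1% and 17.2% of all genes tested were. Xpot (ENSMUSG00000034667.8, chr10:121587380-121626332), which carries tRNA out of the nucleus, had 97.9 and 88.1 CPM in control, 81.7 and 78.5 CPM in dexamethasone, and 145 and 199 CPM in dexamethasone + EPC-EVs. This was a log2 fold change of 1.08 (SE 0.17, adjusted p = 0.000477) against dexamethasone and of 0.87 (SE 0.22, adjusted p = 0.0154) against control. Gars (ENSMUSG00000029777.10, chr6:55038007-55079500), the glycyl-tRNA synthetase, had 139.8 and 129 CPM in control, 146 and 127 CPM in dexamethasone, and 227 and 213 CPM in dexamethasone + EPC-EVs. In edgeR Gars had a log2 fold change of 0.67 (SE 0.14, adjusted p = 0.00234) against dexamethasone and of 0.69 (SE 0.18, adjusted p = 0.0164) against control. The dexamethasone + EPC-EVs libraries of both genes lay above the other 4. Without dexamethasone + EPC-EVs replicate 2 the calls against control were lost, at 0.63 for Xpot and 0.75 for Gars, and that of Gars was also lost without dexamethasone + EPC-EVs replicate 1, at 0.67, with the GC and length trend removed, at 0.45, and against dexamethasone without dexamethasone replicate 2, at 0.58.

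Yars, which charges tyrosine, had 46.0 and 50.9 CPM in control, 50.8 and 35.5 CPM in dexamethasone, and 70.5 and 71.0 CPM in dexamethasone + EPC-EVs, and a log2 fold change of 0.70 (SE 0.20, adjusted p = 0.0171) against dexamethasone. Iars reached 108 and 128 CPM in dexamethasone + EPC-EVs, between the dexamethasone and the control values given earlier, with a log2 fold change of 0.45 (SE 0.16, adjusted p = 0.0422) against dexamethasone. Aars, which charges alanine, had 346 and 247 CPM in control, 242 and 249 CPM in dexamethasone, and 334 and 314 CPM in dexamethasone + EPC-EVs, and a log2 fold change of 0.38 (SE 0.12, adjusted p = 0.0274) against dexamethasone. The dexamethasone + EPC-EVs libraries of Aars lay above both dexamethasone libraries and within the range of control. All 3 calls were lost without dexamethasone replicate 2, at 0.47 for Yars, 0.57 for Iars and 0.41 for Aars, those of Iars and Aars also without dexamethasone replicate 1, at 0.36 and 0.37, and that of Iars without dexamethasone + EPC-EVs replicate 2, at 0.34. With the GC and length trend removed, Yars dropped to 0.37 and Aars turned to -0.19, neither of them called, while against control Aars was called lower at -0.70. Iars was also lost under DESeq2 (0.45), the fit of all 6 libraries (0.47), library totals (0.41), upper quartile scaling (0.41) and limma (0.38). Aars was lost in the fit of all 6 libraries (0.40), and both Aars and Yars under limma (0.32 and 0.60) and with counts thinned to equal depth (0.32 and 0.52).

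Sars, the seryl-tRNA synthetase, had 169.9 and 184 CPM in control, 139 and 139 CPM in dexamethasone, and 126 and 121 CPM in dexamethasone + EPC-EVs. It fell against control by the edgeR test, with a log2 fold change of -0.54 (SE 0.18, adjusted p = 0.0459), and its 3 groups did not overlap. The call of Sars was lost without control replicate 2 at -0.46 and without dexamethasone + EPC-EVs replicate 1 or 2 at -0.55 and -0.50, while removing the GC and length trend took it to -1.08 and against dexamethasone to -0.53, both called. Against control it was lost as well under DESeq2, library totals, limma, no filter and the replicate block, between -0.54 and -0.49. Against control Sars thus lay lower where Phgdh, Psat1 and Shmt2, which make and use the serine that it loads, lay higher. The synthetases called in no comparison were Wars, Nars, Eprs and Tars, for tryptophan, asparagine, glutamate with proline, and threonine, with log2 fold changes of 0.29, 0.013, -0.25 and 0.33 against dexamethasone. Eprs lay below both dexamethasone and both control libraries in dexamethasone + EPC-EVs, at 272 and 256 CPM, and was called lower against control without control replicate 1, at -0.54. Tars was called higher against dexamethasone with the GC and length trend removed, at 0.47.

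The members lie on 15 chromosomes, and 18 of the 36 overlap another gene of GENCODE vM21. The paper gives a strand setting (RF) for the alignment, but which strand the counting kept is not stated, so the counts of such genes are less certain. Ddit3 overlaps a second entry of the same name on its strand, so its count is less certain whichever strand was kept. It also overlaps Gm4189 and Mars on the other strand, and Mars was higher with the vesicles where Ddit3 was lower. Atf5 overlaps Il4i1 and Nup62 on the other strand, Ppp1r15a overlaps Tulp2, Psat1 overlaps Gm3329, Psph overlaps Cct6a, Shmt2 overlaps Ndufa4l2, Mthfd2 overlaps Gm43890, Slc7a5 overlaps Gm20388, Aars overlaps Exosc6, Yars overlaps C77080, and Sars, Iars and Xpot overlap predicted genes. Phgdh has an annotated pseudogene, Phgdh-ps1. Atf4, Trib3, Chac1, Ddit4, Slc38a2, Slc1a5, Slc7a1, Asns and Gars overlap no other annotated gene. The median GC content of the longest transcript was 52.8% in the 35 members tested and 48.8% in all genes tested against dexamethasone, 54.2% in all genes called higher and 43.9% in all genes called lower. The part of base composition in the calls was not tested beyond the removal of its trend, under which Aars, Ddit4, Ppp1r15a, Slc7a5 and Yars were no longer called against dexamethasone.

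ATF4 binds with C/EBP partners to a composite element whose core is written here as TGATGNAA, and since many of these genes rose together their promoters were searched for it. Promoter sequences of RefSeq (GRCm38.p6) were found for 30 of the 36 genes, and the 250 bases before the start were read on both strands, where the reverse complement is TTNCATCA. Eif4ebp1, Cth, Slc7a5, Slc1a5, Wars and Nars had no entry. The core was present in 1134 of 32851 promoters (3.45%) and in 1056 of 27025 genes (3.91%). Of the 30 members, 7 held it (23.3%). The members were picked from what is known of ATF4 and its targets, so this share is not independent of that choice. Of the 19 with a promoter that were called higher against dexamethasone, 4 held it (21.1%), namely Chac1, Asns, Aars and Gars. Of the 11 others, Nupr1, Pycr1 and Tars held it (27.3%). A match is a description, not a site. The matches of these genes except Aars are printed on the strand of the gene with the core in capitals and some bases to either side. The stretches are chr2:119351009-119351096 for Chac1 and chr6:55037931-55038000 for Gars on the plus strand, and chr6:7693214-7693243 for Asns, chr7:126625562-126625591 for Nupr1, chr11:120643804-120643891 for Pycr1 and chr15:11399659-11399684 for Tars on the minus strand.
Chac1: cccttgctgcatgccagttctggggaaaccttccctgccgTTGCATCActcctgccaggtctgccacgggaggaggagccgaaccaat
Asns: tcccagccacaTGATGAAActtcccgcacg
Gars: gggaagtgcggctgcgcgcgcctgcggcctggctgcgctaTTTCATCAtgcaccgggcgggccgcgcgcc
Nupr1: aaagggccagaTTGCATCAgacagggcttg
Pycr1: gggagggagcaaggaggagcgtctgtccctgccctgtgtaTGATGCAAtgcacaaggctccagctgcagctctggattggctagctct
Tars: caggagtcccgTTGCATCAgctggtt
The core lay 23 bases before the RefSeq start in Asns, 15 in Tars and 30 in Gars. In Pycr1, Nupr1, Aars and Chac1 it lay 103, 110, 112 and 193 bases before that start. By the GENCODE coordinates the matches of Asns, Nupr1 and Aars lie within the gene.

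Other genes of these pathways were counted by lists, each beside the 0.012 median log2 fold change of all genes tested in dexamethasone + EPC-EVs against dexamethasone. Of the 15 other cytosolic tRNA synthetases and their scaffold proteins, 5 were called higher and 1 lower (33.3% and 6.67%, against 20.9% and 18.9% of all genes tested), and the median was 0.12. The largest rises were in Vars for valine, at 1.56 (SE 0.15, adjusted p = 1.59e-05), Farsa for phenylalanine, at 1.45 (SE 0.21, adjusted p = 0.000293), and Mars for methionine, at 1.04 (SE 0.16, adjusted p = 0.000444). Aimp1, a scaffold of the multisynthetase complex, fell and had 59.3 and 53.5 CPM in dexamethasone and 19.5 and 20.4 CPM in dexamethasone + EPC-EVs, with a log2 fold change of -1.52 (SE 0.20, adjusted p = 0.000166), which was not called with the GC and length trend removed, at -0.54. The same removal took Vars to 0.63 and Mars to 0.67, both still called. Of 17 mitochondrial tRNA synthetases, 6 were called higher and 1 lower (35.3% and 5.88%, against 20.9% and 18.9% of all genes tested), at a median of 0.48. Aars2, Vars2 and Yars2 rose by 1.48, 1.26 and 1.27 on the log2 scale, and Lars2, for leucine, had 26.2 and 34.6 CPM in dexamethasone and 14.7 and 13.8 CPM in dexamethasone + EPC-EVs, with a log2 fold change of -1.11 (SE 0.26, adjusted p = 0.00542). The calls of Aars2 and Vars2 were lost with the GC and length trend removed (0.61 and 0.51), that of Yars2 without dexamethasone replicate 1 (1.2), dexamethasone replicate 2 (1.36) or dexamethasone + EPC-EVs replicate 1 (0.97), and that of Lars2 without dexamethasone replicate 2 (-0.89). Yars2 was also not called under DESeq2, the fit of all 6 libraries, library totals, upper quartile scaling, thinned counts and the replicate block (between 1.12 and 1.29), and limma gave 0.79, called.

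**Figure D3:**
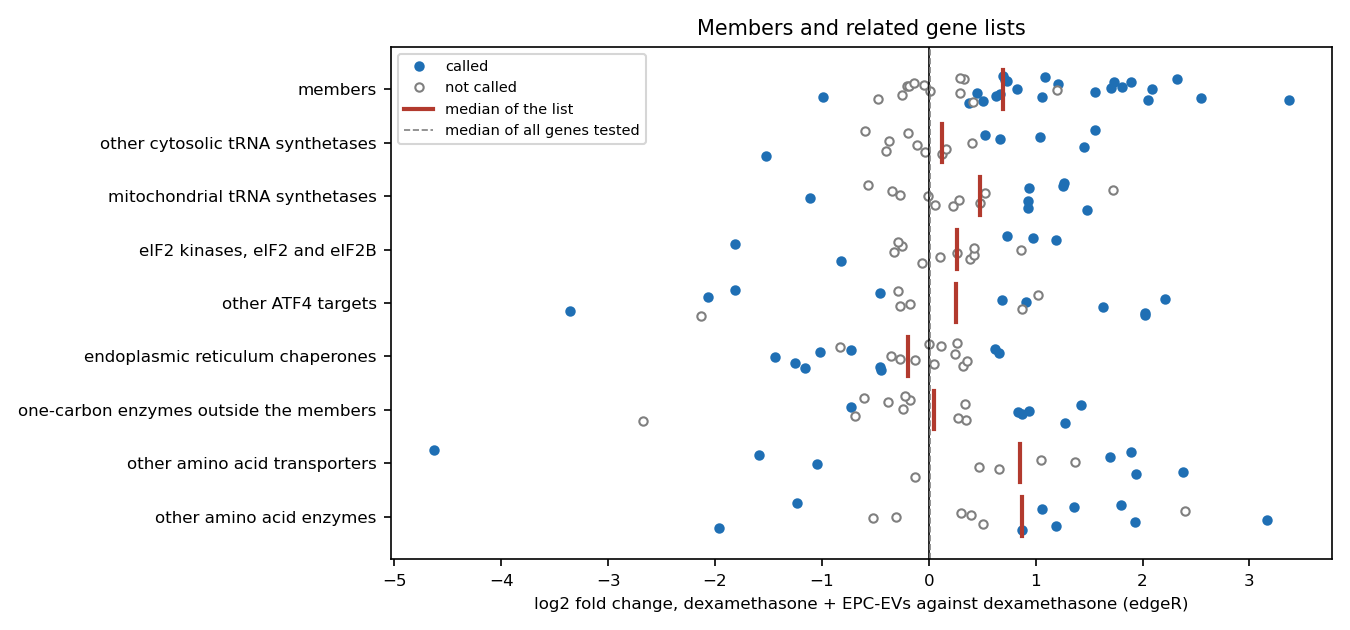
Log2 fold change between dexamethasone + EPC-EVs and dexamethasone (horizontal axis) of each tested gene of the members and of the other lists (vertical axis), with a red line at the median of each list and a dashed line at the 0.012 median of all genes tested. The median of the members lies at 0.70 and that of the endoplasmic reticulum chaperones at -0.20, and the point of Slc7a8 far to the left rests on 1 and 0 counts in dexamethasone + EPC-EVs.

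Upstream of ATF4, the 15 genes of the eIF2 kinases, eIF2 and its exchange factor eIF2B had 3 called higher and 2 lower (20% and 13.3%, against 20.9% and 18.9% of all genes tested), with a median of 0.27. Gcn1l1, a partner of the amino acid sensing kinase GCN2, had 111 and 82.1 CPM in dexamethasone and 217 and 228 CPM in dexamethasone + EPC-EVs, with a log2 fold change of 1.19 (SE 0.16, adjusted p = 0.000161). Impact, which restrains GCN2, had a log2 fold change of 0.97 (SE 0.19, adjusted p = 0.00178), and Ppp1r15b, a constitutive partner of the eIF2 phosphatase, one of 0.74 (SE 0.14, adjusted p = 0.00172). A partner and a restrainer of GCN2 thus both rose, while Eif2ak4, the gene of GCN2 itself, was not called. Eif2ak4 had 82.5 and 112 CPM in dexamethasone and 103 and 110 CPM in dexamethasone + EPC-EVs. Eif2s2, the beta subunit of eIF2, fell and had 207 and 214 CPM in dexamethasone and 58.6 and 63.0 CPM in dexamethasone + EPC-EVs, with a log2 fold change of -1.81 (SE 0.14, adjusted p = 4.52e-06), and Eif2ak2, the kinase PKR, fell with one of -0.82 (SE 0.14, adjusted p = 0.000901). Without dexamethasone replicate 2 the call of Impact was lost, at 0.81. Removing the GC and length trend took Impact to 1.47, Gcn1l1 to 0.54, Eif2s2 to -0.96 and Eif2ak2 to -0.47, all still called.

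Of 16 tested among the 19 other ATF4 targets, 6 were called higher and 4 lower (37.5% and 25.0%, against 20.9% and 18.9% of all genes tested), at a median of 0.25, so this list moved both ways. Slc6a9, a glycine transporter, had 7.66 and 18.9 CPM in dexamethasone and 57.5 and 67.1 CPM in dexamethasone + EPC-EVs, with a log2 fold change of 2.21 (SE 0.34, adjusted p = 0.000367). Cebpb, a partner of ATF4, had a log2 fold change of 2.03 (SE 0.25, adjusted p = 7.84e-05), and Bbc3, the cell death gene PUMA, one of 2.02 (SE 0.42, adjusted p = 0.00280), and neither was called with the GC and length trend removed, at 0.51 and 0.64. Among the falls, Ero1l, an oxidase of the endoplasmic reticulum that CHOP induces, had 450.5 and 464 CPM in dexamethasone and 39.8 and 50.7 CPM in dexamethasone + EPC-EVs, with a log2 fold change of -3.35 (SE 0.16, adjusted p = 1.38e-07). Vldlr, a lipoprotein receptor, fell with a log2 fold change of -1.82 (SE 0.26, adjusted p = 0.000237). Slc7a11, the cystine carrier, had 11.2 and 6.01 CPM in control and 21.6 and 18 CPM in dexamethasone, a log2 fold change of 1.19, not called. In dexamethasone + EPC-EVs it had 2.28 and 7.25 CPM, with a log2 fold change of -2.07 (SE 0.48, adjusted p = 0.00523) against dexamethasone. This was not called without dexamethasone replicate 1, at -1.92, and was -3.12 without dexamethasone + EPC-EVs replicate 2. Still called, it moved to -1.29 with the GC and length trend removed and to -0.89 under limma, and Vldlr to -1.21 under limma. The paper, in contrast, describes system Xc-, the cystine carrier, as downregulated by dexamethasone and upregulated with the vesicles in its RNA sequencing. It names Slc7a11 among the differentially expressed genes, and reports SLC7A11 in western blots as lower with dexamethasone and elevated with the vesicles.

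The 20 endoplasmic reticulum chaperones and folding factors had 2 called higher and 7 lower (10.0% and 35.0%, against 20.9% and 18.9% of all genes tested). With 9 of them above 0 and 11 below, their median was -0.20. Hsp90b1, the chaperone GRP94, had 1362 and 1456 CPM in dexamethasone and 385 and 666 CPM in dexamethasone + EPC-EVs, with a log2 fold change of -1.44 (SE 0.23, adjusted p = 0.00138). Calr, the calcium-binding chaperone calreticulin, had 1793 and 1813 CPM in dexamethasone and 869.8 and 771 CPM in dexamethasone + EPC-EVs, with a log2 fold change of -1.15 (SE 0.11, adjusted p = 1.77e-05). Dnajb9, a co-chaperone of the unfolded protein response, fell with one of -1.25 (SE 0.25, adjusted p = 0.00223), not called with the GC and length trend removed (-0.58), where Hsp90b1 was -0.94 and still called. The 2 rises were Manf, a secreted stress protein, at 0.66 (SE 0.19, adjusted p = 0.0154), and Pdia6, a disulfide isomerase, at 0.62 (SE 0.14, adjusted p = 0.00456). Manf was not called without dexamethasone replicate 1 (0.53) or with that trend removed (0.45), nor Pdia6 without dexamethasone replicate 2 (0.50).

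Of 16 tested one-carbon enzymes outside the members, 5 were called higher and 1 lower (31.2% and 6.25%, against 20.9% and 18.9% of all genes tested), at a median of 0.049. Ahcy, which clears S-adenosylhomocysteine, had a log2 fold change of 1.28 (SE 0.18, adjusted p = 0.000198), and Mthfd1, the cytosolic trifunctional folate enzyme, one of 0.94 (SE 0.21, adjusted p = 0.00420). Mthfd2l, the relative of Mthfd2, had 23.6 and 24.9 CPM in dexamethasone and 14.5 and 15.0 CPM in dexamethasone + EPC-EVs and a log2 fold change of -0.73 (SE 0.26, adjusted p = 0.0422), lost when any 1 of the 4 libraries was left out (between -0.76 without dexamethasone replicate 1 and -0.68 without dexamethasone replicate 2, with -0.69 and -0.74 without dexamethasone + EPC-EVs replicates 1 and 2). The call of Mthfd2l was also lost under DESeq2, limma, the fit of all 6 libraries, no filter, the replicate block and thinned counts (between -0.74 and -0.58), and removing the GC and length trend left -0.023. So of these related enzymes Mthfd2 was called higher and Mthfd2l lower, and the difference between them was not tested.

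Of 12 tested among the 19 other amino acid transporters, 4 were called higher and 3 lower (33.3% and 25.0%, against 20.9% and 18.9% of all genes tested), around a median of 0.86. Slc36a1, a proton-coupled carrier for small amino acids, had 11.3 and 5.30 CPM in dexamethasone and 42.7 and 45.1 CPM in dexamethasone + EPC-EVs, with a log2 fold change of 2.38 (SE 0.32, adjusted p = 0.000160). Slc1a3, a glutamate and aspartate carrier, had 120.3 and 130.1 CPM in dexamethasone and 460.5 and 513 CPM in dexamethasone + EPC-EVs, with a log2 fold change of 1.94 (SE 0.13, adjusted p = 1.73e-06), and Slc7a6, a light chain for cationic amino acid exchange, one of 1.90 (SE 0.20, adjusted p = 2.92e-05). In all 3 the dexamethasone + EPC-EVs libraries lay above both dexamethasone libraries. Slc7a2, a relative of Slc7a1, fell from 166 and 175 CPM to 59.4 and 55.3 CPM, a log2 fold change of -1.59 (SE 0.14, adjusted p = 1.13e-05). Slc38a9, a lysosomal arginine sensor, had a log2 fold change of -1.05 (SE 0.31, adjusted p = 0.0180) that was not called without dexamethasone replicate 2 (-0.84) or dexamethasone + EPC-EVs replicate 1 (-1.0), under limma (-0.50) or with the GC and length trend removed (-0.59). Slc7a8 was called lower with 8 and 9 counts in dexamethasone against 1 and 0 in dexamethasone + EPC-EVs, where a fitted fold change depends on the prior count and is not given. Its call was lost under DESeq2, limma, no filter and the replicate block, also with the GC and length trend removed.

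Of 15 tested among the 21 other amino acid enzymes, 7 were called higher and 2 lower (46.7% and 13.3%, against 20.9% and 18.9% of all genes tested), around a median of 0.87. Gcat, which turns a threonine product into glycine, had 3.53 and 3.09 CPM in dexamethasone and 27.3 and 32.9 CPM in dexamethasone + EPC-EVs, with a log2 fold change of 3.16 (SE 0.33, adjusted p = 2.61e-05). Bckdha, of branched-chain amino acid breakdown, had a log2 fold change of 1.93 (SE 0.31, adjusted p = 0.000536) that dropped to 1.18 with the GC and length trend removed, still called. Pycrl, a relative of Pycr1, had one of 1.80 (SE 0.45, adjusted p = 0.00801), not called with that trend removed (1.08). Gcat overlaps a second entry of the same name on its strand. Ass1, of arginine synthesis, fell and had 82.3 and 86.6 CPM in dexamethasone and 30.2 and 13.9 CPM in dexamethasone + EPC-EVs, with a log2 fold change of -1.96 (SE 0.29, adjusted p = 0.000359). Srr, the serine racemase, fell with one of -1.23 (SE 0.27, adjusted p = 0.00341), not called without dexamethasone replicate 1 (-1.11). Of the list and marker genes named, Farsa, Mars, Aimp1, Vars2, Gcn1l1, Impact, Ppp1r15b, Eif2s2, Eif2ak2, Slc6a9, Cebpb, Slc7a11, Hsp90b1, Dnajb9, Manf, Pdia6, Mthfd1, Ahcy, Slc1a3, Slc7a2, Slc38a9, Gcat, Bckdha, Srr, Runx2, Col1a2, Spp1, Phex, Cdh5, Cd34, Prom1, Csf1r and Pparg overlap another annotated gene, and Calr has an annotated pseudogene.

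The labelled cell type was checked with marker lists. All 12 osteoblast markers were in the table, and their summed level was 16238 and 17756 CPM in control, 17558 and 17837 CPM in dexamethasone, and 29122 and 23008 CPM in dexamethasone + EPC-EVs. Of the 10 tested against dexamethasone, 3 were called higher and 2 lower (30.0% and 20%, against 20.9% and 18.9% of all genes tested). By FPKM the most abundant was Spp1, osteopontin, which fell with the vesicles with a log2 fold change of -1.06 (SE 0.14, adjusted p = 0.000155). Phex, a regulator of phosphate and mineralization, fell with one of -1.92 (SE 0.40, adjusted p = 0.00297). Dmp1, a matrix protein of late osteoblasts and osteocytes, had 337 and 349 CPM in dexamethasone and 137 and 25.6 CPM in dexamethasone + EPC-EVs, far apart between replicates, and a log2 fold change of -2.10 (SE 1.05, adjusted p = 0.258) that was not called. It was called lower without dexamethasone + EPC-EVs replicate 1, at -3.74, without replicate 2 of that group, at -1.33, in the fit of all 6 libraries, at -2.08, and by limma, at -2.52. The collagen genes Col1a2 and Col1a1 rose, with log2 fold changes of 1.89 (SE 0.12, adjusted p = 1.42e-06) and 1.51 (SE 0.14, adjusted p = 1.16e-05), as did Sparc, osteonectin, with 1.25 (SE 0.11, adjusted p = 8.97e-06). With the GC and length trend removed Phex was not called, at -1.12, and Spp1 and Col1a1 moved to -0.53 and 0.74, both still called. Limma took Phex to -1.28, still called. Runx2, the osteoblast lineage factor, had 204 and 181 CPM in control, 154 and 166 CPM in dexamethasone, and 188 and 179 CPM in dexamethasone + EPC-EVs, and Alpl and Bglap, markers of mature osteoblasts, were at 0 in dexamethasone replicate 2 and at most 3.20 and 6.52 CPM in any library. The collagen genes thus lay higher in the same libraries as the amino acid enzymes, and whether these differences are linked was not tested.

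Of 11 endothelial markers 8 were in the table, without Kdr, Tie1 and Cldn5, and they summed to 420.4 and 381 CPM in control, 367 and 373 CPM in dexamethasone, and 288 and 239 CPM in dexamethasone + EPC-EVs, nearly all of it Cd34. Cd34 fell with a log2 fold change of -0.51 (SE 0.13, adjusted p = 0.00962), not called without dexamethasone replicate 1 (-0.51) or 2 (-0.49) or with the GC and length trend removed (-0.077), and without it the list summed to 1.57 and 4.55 CPM in dexamethasone + EPC-EVs. Pecam1, Cdh5, Tek, Prom1, Emcn and Esam were each at 0 in at least 1 library. Of 8 haematopoietic markers 3 were in the table, without Ptprc, Itgam, Tyrobp, Hba-a1 and Hbb-bs, and they summed to 6.24 and 4.0 CPM in control, 7.80 and 4.57 CPM in dexamethasone, and 7.22 and 37.9 CPM in dexamethasone + EPC-EVs. Their highest by mean FPKM was Cd68 in control and dexamethasone, at 3.23 and 3.32, and Csf1r in dexamethasone + EPC-EVs, at 4.10. The high sum in dexamethasone + EPC-EVs replicate 2 came from Csf1r, at 36.3 CPM there and 4.40 CPM in replicate 1. Adgre1 was at 0 in every library except dexamethasone replicate 1. Of 6 adipocyte markers 4 were in the table, without Cidec and Lep, and they summed to 7.39 and 2.80 CPM in control, 10.0 and 4.27 CPM in dexamethasone, and 0.707 and 0.154 CPM in dexamethasone + EPC-EVs, mostly Fabp4, with Adipoq, Plin1 and Pparg at 0 in both dexamethasone + EPC-EVs libraries. Fabp4 fell with a log2 fold change of -3.76 (SE 0.99, adjusted p = 0.0107), not called without dexamethasone replicate 1, at -2.34, or under limma, at -1.01. The part of these markers in the results above was not tested.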

How the data were processed

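RNA of 6 MC3T3-E1 Subclone 14 libraries was sequenced, 2 each of control, dexamethasone and dexamethasone + EPC-EVs. The authors aligned the reads with HISAT2 to GRCm38 and made each count with HTSeq 0.6.1, deposited without normalization. The FPKM deposited beside each count is the count divided by gene length and library total, and was used to compare levels between genes and in 1 alternative. For the submitters' own tests, which were not used, the labels name DESeq2 1.26.0 and the paper writes DESeq with the same version. The deposited table of transcripts was left out.

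For each pair of groups the 4 libraries were fitted in edgeR 4.0.16 (R 4.3.3) after filterByExpr and TMM scaling, with the quasi-likelihood test and robust dispersions. Genes were called where p, adjusted over the whole table tested by Benjamini-Hochberg, was under 0.05. The SE of a log2 fold change is its size divided by the square root of the F statistic. The fit was tested on simulated data. Genes were matched by Ensembl ID to GENCODE vM21 for coordinates, overlaps, GC content and transcript length, and 21646 of 21686 were found.

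The alternatives were RLE, upper quartile and total scaling, mitochondrial genes left out, DESeq2 1.42.0, limma 3.58.1 on log2(FPKM + 1), no filter, a filter of 1 CPM in 2 libraries, all 6 libraries in one fit, a replicate block, counts thinned to equal depth, a loess trend (span 0.4) on GC content and length removed with and without the replicate block, each replicate left out in turn, and the threshold of the study's methods (log2 fold change beyond 1.5 with an unadjusted p under 0.05). Members called in at least 1 comparison are given with their values, and from each list up to 3 called genes with the largest rise and up to 3 with the largest fall against dexamethasone, though not every gene and promoter match found this way is printed. The members and lists were chosen with earlier results of these data known. The genes singled out in dexamethasone against control, and Cebpg, Nupr1, Sesn2, Aldh18a1, Pycr1, Eprs, Eif2ak4, Runx2, Dmp1, Alpl, Bglap and Csf1r, were singled out after their values were seen.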

Additional observations from a re-analysis of the deposited data

How the results depend on the processing

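Members called higher and lower in dexamethasone against control were 0 and 0, and each setting is given with the share of all genes called in the same fit. No filter gave 1 and 1 (0.604% and 0.654%), the threshold of the study's methods 1 higher (0.831%), DESeq2 1 lower (0.441%), GC and length trend removal with replicate block 2 lower (0.994%), and leaving out each replicate 0 to 4 higher (0.0294% to 9.25%) and 0 to 2 lower (0.0367% to 6.80%). Against dexamethasone, dexamethasone + EPC-EVs had 22 higher and 1 lower (20.9% and 18.9%). The study's threshold gave 10 and 0 (7.05% and 7.13%), and leaving out each replicate 14 to 22 higher (12.1% to 18.2%) and 1 lower each time (10.1% to 16.6%). GC and length trend removal gave 4 lower (15.6%), also with the replicate block (4, 15.8%), and total and upper quartile scaling 2 lower (20.5% and 20.4%). Against control it had 11 higher and 2 lower (19.1% and 17.2%). The study's threshold gave 6 and 0 (11.2% and 9.52%), and leaving out each replicate 8 to 17 higher (13.3% to 24.6%) and 1 to 3 lower (11.3% to 18.2%). GC and length trend removal gave 4 lower (13.6%), and DESeq2, total scaling, limma, no filter and the replicate block 1 lower each (11.4%, 16.6%, 15.9%, 11.9% and 16.0%). GC and length trend removal turned Aars to -0.19 (-0.19 with the replicate block) against dexamethasone. Against control it turned Aars to -0.70 and Sesn2 to -0.72, both called lower, and Yars, not called, to -0.0081. The cause was not tested. The replicate block alone gave 23 higher and 1 lower (20.9% and 18.7%) against dexamethasone. The samples share only a replicate number, and across 13485 genes, which are not independent, the replicate differences of each pair of groups correlated at 0.0619, 0.00732 and 0.0114. Where 1 library is left in a group, its spread is taken from the other group. Apart from the study's threshold, 13 of 23 calls against dexamethasone and 7 of 13 against control held under every alternative. The control and dexamethasone libraries hold fewer counts than the dexamethasone + EPC-EVs libraries, which limits their precision.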
